A study of Homo sapiens with 10 samples.

Results

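Transcripts of 39 nucleoporins and nuclear transport factors were examined in the human myeloma line MM.1S after knockdown of HDAC3 or DNMT1. The genes form a fixed list of nuclear pore subunits, transport receptors and Ran regulators, and each was read by 1 probe set, the one with the highest mean signal among those that the platform annotation ties to a single gene symbol. Under this rule 38 of the 39 were measured, of 19775 genes in all. NUTF2, the carrier that returns Ran to the nucleus, shares its probe sets with a pseudogene and was not analysed here.

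The 10 arrays form 5 groups of 2. Cells carried shHDAC3#1 or shHDAC3#2, hairpins against the histone deacetylase HDAC3; shDNMT1#1 or shDNMT1#2, hairpins against the maintenance DNA methyltransferase DNMT1; or shLuc, a hairpin against luciferase that served as control. All cells were infected with lentivirus, and RNA was taken 48 h later. The labels tie the shLuc arrays to the HDAC3 hairpins and do not say whether the DNMT1 arrays were handled alongside, so that handling and DNMT1 hairpin cannot be told apart. No label states that a group's arrays are separate cultures, so that p-values reflect array-to-array spread alone, possibly technical.

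The targeted transcripts were lower with their own hairpins. HDAC3 had log2 signals of 5.97 and 5.72 with shHDAC3#1 and 5.83 and 5.52 with shHDAC3#2, against 7.26 and 6.61 in shLuc. DNMT1 had 5.76 and 6.0 with shDNMT1#1 and 6.27 and 6.07 with shDNMT1#2, against 8.49 and 8.33 in shLuc, and it was also lower with shHDAC3#1 (7.14 and 7.29) and shHDAC3#2 (7.64 and 7.89). HDAC3 in turn fell with shDNMT1#2 (6.39 and 6.28; log2 change -0.60, limma, adjusted p = 0.019) and was at -0.12 with shDNMT1#1 (adjusted p = 0.73). The 6 plasma cell markers lay between the 96.1 and 99 percentiles of all genes in shLuc, while markers of other cell types reached at most the 53.5 percentile (T cell, 4 genes), 54.5 (monocyte, 3), 67.7 (epithelial, 4), 72.8 (B cell, 2), 84.5 (erythroid, 1) and 90 (fibroblast, 3). The 2 arrays of shHDAC3#1 stood apart in a sign of RNA quality: for ACTB, 3′ minus 5′ signal was 0.98 and 1.02, against 0.63 to 0.81 on the other 8 arrays. For GAPDH they did not stand apart, at 0.53 and 0.51, against 0.35 to 0.51 on the other 8. The SD of all log2 values was 1.843 to 1.915 on the knockdown arrays, against 1.943 and 1.929 on the shLuc arrays. The members ranged from the 24.7 percentile (NUP58) to the 98.5 percentile (KPNA2) of all genes in shLuc. All but NUP58 and NUP155 (44.7) lay at or above the 50.4 percentile (NUP160). Shares of all genes given below include dimmer genes and were not matched for signal.

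Nuclear pores are ring-shaped channels through the nuclear envelope. A scaffold of an outer ring, built from Y-shaped complexes, and an inner ring is anchored to the membrane, and it holds subunits with phenylalanine-glycine repeats that fill the channel, filaments on the cytoplasmic side and a basket on the nuclear side. Importins carry proteins in, exportins carry them out, and the direction is set by Ran, which is kept in its GTP form in the nucleus by RCC1 and hydrolyses GTP in the cytoplasm with RANGAP1. The exportin XPO1 is a drug target in multiple myeloma.

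Most of these transcripts had lower means than in shLuc: 29 of 38 with shHDAC3#1, 33 with shHDAC3#2, 33 with shDNMT1#1 and 34 with shDNMT1#2. XPO1, CSE1L and, in all but 1 instance, the nuclear basket genes fell with every hairpin. A gene was called when its Benjamini-Hochberg adjusted p from limma, over all genes, was under 0.05, and "rose" and "fell" are used of called genes alone. With shDNMT1#2, 24 of 38 members fell and none rose, while 26.8% of all genes were called, 15.2% lower and 11.6% higher. With shHDAC3#1, 19 fell and 1 rose, against 24.4% of all genes called, 16.6% lower and 7.83% higher. With shHDAC3#2, 15 fell and none rose, against 10.9% of all genes called, 9.54% lower and 1.31% higher. With shDNMT1#1, 14 fell and none rose, against 8.15% called, 6.81% lower and 1.34% higher. At an unadjusted p under 0.05 in limma, 2 members were higher with shDNMT1#2 and 0 with shHDAC3#2 or shDNMT1#1. For unadjusted counts, here and below, the share of all genes is not given, so that they cannot be read as an excess. The median log2 change of the members was -0.30 with shHDAC3#1, -0.31 with shHDAC3#2, -0.27 with shDNMT1#1 and -0.38 with shDNMT1#2, while that of all genes lay between 0.05 and 0.08.

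These 4 comparisons share the 2 shLuc arrays. Without shLuc replicate 1, 11 members were called with shHDAC3#1, 7 with shHDAC3#2, 1 with shDNMT1#1 and 14 with shDNMT1#2. Other arrays also moved the counts: 12 were called with shHDAC3#1 without its replicate 1, 7 with shHDAC3#2 without its replicate 1 and 2 with shDNMT1#1 without its replicate 2. Each of these fits leaves 1 array in a group, and each also called fewer of all genes. Without shLuc replicate 1 the members' medians were -0.23, -0.23, -0.17 and -0.34 with shHDAC3#1, shHDAC3#2, shDNMT1#1 and shDNMT1#2. With shDNMT1#1 the share of members called was then near that of all genes. The first shLuc array was the higher of the pair for 29 of 38 members, with a median difference of 0.11, while 44.6% of all genes were higher on it. Replicates of the knockdown groups also differed across the members as a set. Replicate 1 was higher for 33 members with shDNMT1#1, 24 with shDNMT1#2, 7 with shHDAC3#1 and 4 with shHDAC3#2. The median differences were 0.18, 0.02, -0.08 and -0.16, and 50%, 53.7%, 52.6% and 39.7% of all genes were higher in replicate 1. The members thus moved together between arrays of 1 group and are not independent counts. After a further quantile normalization, which gives all arrays the same spread, the members' medians were -0.14, -0.21, -0.17 and -0.28 for shHDAC3#1, shHDAC3#2, shDNMT1#1 and shDNMT1#2, and 16, 11, 13 and 18 members were called lower, with 2, 0, 0 and 2 called higher. Of all genes, 27.3%, 11%, 8.04% and 28% were then called in the same order. The arrays measure a share of the RNA pool, so that fewer cells with a transcript and less of it per cell cannot be told apart.

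**Figure D1:**
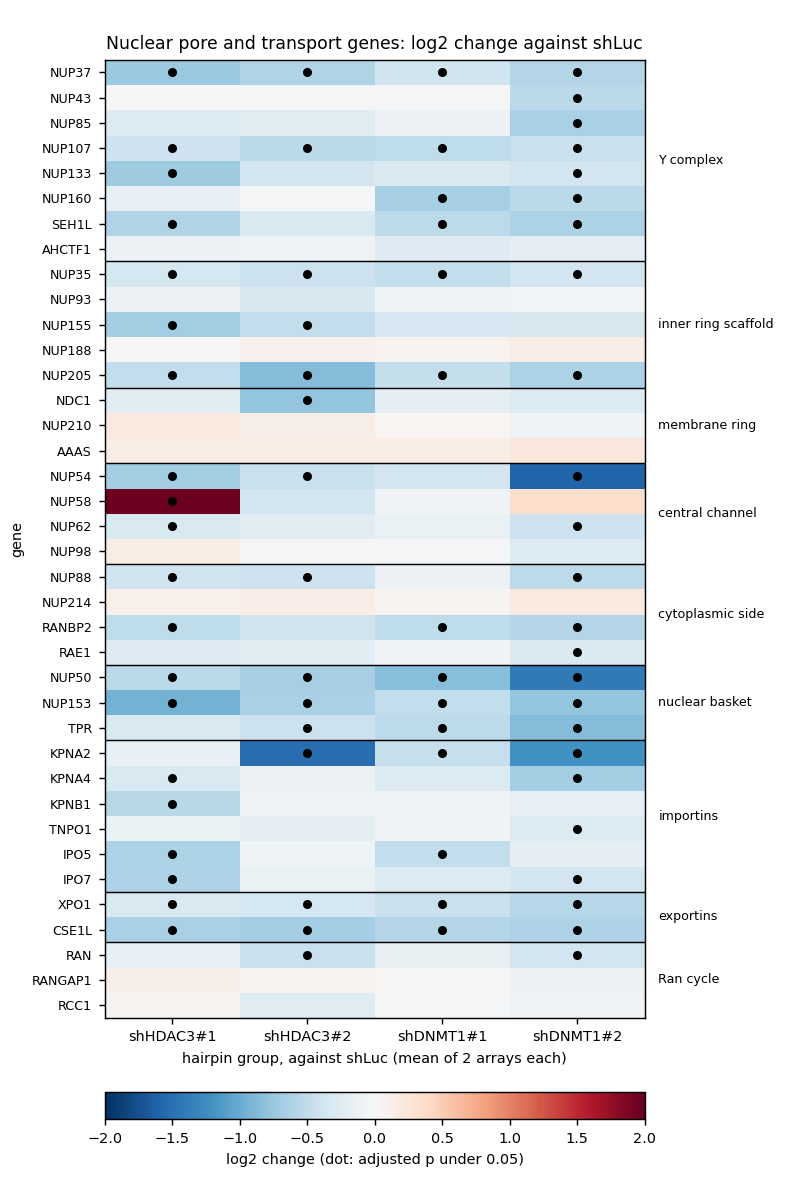
Log2 change of each of the 38 measured genes (rows, grouped by class) in each hairpin group against shLuc (columns), from group means of 2 arrays; dots mark an adjusted p under 0.05. The nuclear basket and exportin rows are blue in all columns, and the single dark red cell is NUP58 with shHDAC3#1 (1.95).

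**Figure D2:**
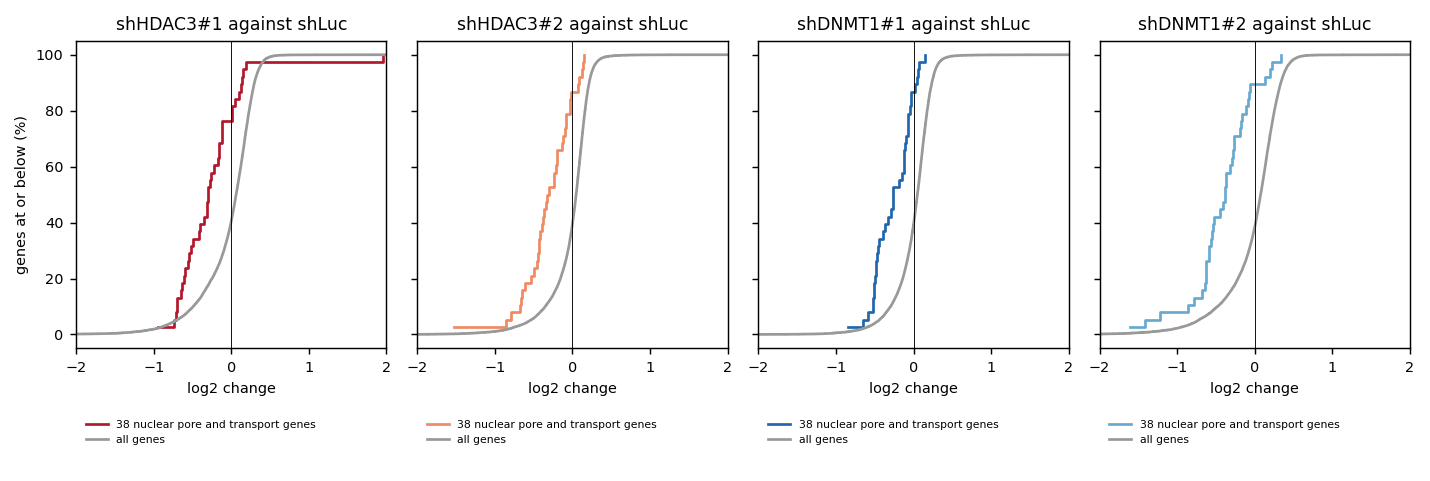
Cumulative share of genes (vertical axis, percent) by log2 change against shLuc (horizontal axis) for the 38 members and for all 19775 genes, 1 panel per hairpin. The members' curve lies left of the curve of all genes through most of its range in each panel, with medians between -0.38 and -0.27.

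Of the 38 members, 8 fell with all 4 hairpins: NUP37 and NUP107 of the Y complex, NUP35 and NUP205 of the inner ring, NUP50 and NUP153 of the basket, and the exportins XPO1 and CSE1L. They make up 21.1% of the members, while 3.18% of all genes were called lower with all 4 hairpins. For 19 members all 8 knockdown arrays lay below both shLuc arrays, as they did for 9.3% of all genes. At the other end, 9 members were called with no hairpin, among them NUP188, NUP93, NUP98, NUP214, RANGAP1 and RCC1. They make up 23.7% of the members, while 59% of all genes were called with none. Without shLuc replicate 1, only NUP50 of the 8 was called lower with all 4 hairpins, without shDNMT1#1 replicate 2 only NUP50 and CSE1L were, 4 of the 8 were without shHDAC3#1 replicate 1 and 5 without shHDAC3#2 replicate 1, and with the mean of all probe sets of a gene only NUP107 and NUP35, each of which has 1 probe set.

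The Y complex, the main unit of the outer ring, was most affected with shDNMT1#2, where 7 of its 8 members fell, with a median log2 change of -0.54. With shHDAC3#1 and shDNMT1#1, 4 fell, and with shHDAC3#2, 2 fell. NUP37, a propeller-shaped subunit, had signals of 7.41 and 7.48 with shHDAC3#1, 7.49 and 7.66 with shHDAC3#2, 7.84 and 7.73 with shDNMT1#1 and 7.61 and 7.58 with shDNMT1#2, against 8.27 and 8.10 in shLuc. No knockdown array reached the lower shLuc array. Its log2 changes were -0.74 ± 0.10 (SE), -0.61, -0.40 and -0.59 in the same order (limma, adjusted p between 1.4e-05 and 0.015). A dimmer second NUP37 probe set, at a mean of 5.41, lay between -0.08 and 0.25. SEH1L, a subunit that also serves in nutrient signalling, had 7.57 and 7.51 with shHDAC3#1, 7.72 and 7.96 with shHDAC3#2, 7.85 and 7.38 with shDNMT1#1 and 7.53 and 7.49 with shDNMT1#2, against 8.23 and 8.05 in shLuc. It fell with shHDAC3#1 (-0.60), shDNMT1#1 (-0.53) and shDNMT1#2 (-0.63), and was at -0.30 with shHDAC3#2 (adjusted p = 0.17).

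The other Y complex genes differed in the hairpins with which they were called. NUP107, part of the stem of the Y, fell with every hairpin, by 0.42 with shHDAC3#1, 0.54 with shHDAC3#2, 0.51 with shDNMT1#1 and 0.44 with shDNMT1#2. NUP133, its neighbour in the stem, fell with shHDAC3#1 (-0.71) and shDNMT1#2 (-0.36). It was at -0.36 with shHDAC3#2 and -0.29 with shDNMT1#1 (limma, adjusted p = 0.06 and 0.17). Its differences between hairpins of the same target were not called (adjusted p = 0.068 for HDAC3 and 0.77 for DNMT1). NUP160 fell with both DNMT1 hairpins (-0.66 with shDNMT1#1 and -0.54 with shDNMT1#2) and was at -0.16 and -0.02 with shHDAC3#1 and shHDAC3#2. NUP43 and NUP85 fell with shDNMT1#2 alone, by 0.54 and 0.64. AHCTF1, which brings the Y complex to chromatin at the end of mitosis, was called with no hairpin, with changes between -0.26 and -0.08. The dimmer NUP160 probe sets, at means of 4.93 and 4.73, gave 0.20 and 0.22 with shDNMT1#1 and 0.11 and -0.06 with shDNMT1#2. Leaving out shLuc replicate 1, all calls of NUP107 and NUP160 were lost, as were those of NUP37 with shDNMT1#1, SEH1L with shHDAC3#1 and shDNMT1#1 and NUP133 with shDNMT1#2 (adjusted p between 0.059 and 0.38).

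The inner ring scaffold split in the same way, with NUP205 and NUP35 lower throughout and NUP188 and NUP93 called nowhere. NUP205, a large subunit of the ring, had 6.91 and 7.14 with shHDAC3#1, 6.61 and 6.70 with shHDAC3#2, 7.20 and 6.89 with shDNMT1#1 and 6.97 and 6.80 with shDNMT1#2, against 7.61 and 7.42 in shLuc. Every knockdown array lay below both controls. The log2 change was largest with shHDAC3#2, at -0.86 ± 0.12 (SE, adjusted p = 3.7e-05), a level of 55.1% of shLuc, and lay between -0.63 and -0.47 with the other hairpins. Its second probe set, named as prone to cross-hybridization, lay between -0.19 and 0.01. NUP155, which the ring needs to assemble, had 5.45 and 5.35 with shHDAC3#1, 5.48 and 5.72 with shHDAC3#2, 5.88 and 5.67 with shDNMT1#1 and 5.87 and 5.70 with shDNMT1#2, against 6.22 and 5.98 in shLuc. It fell with both HDAC3 hairpins (-0.70 and -0.50), and was at -0.33 and -0.32 with the DNMT1 hairpins (adjusted p = 0.14 and 0.078). NUP35 fell by 0.36 to 0.48 across the hairpins, and NUP188, the paralog of NUP205, lay between 0.01 and 0.13. With shLuc replicate 2 as the only control, all NUP35 calls were lost, with NUP205 still called with shHDAC3#2 and shDNMT1#2 and NUP155 with shHDAC3#1.

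Of the membrane ring and its partner, 1 gene changed with 1 hairpin. NDC1, a membrane protein that anchors the pore, had 7.87 and 7.96 with shHDAC3#1, 7.35 and 7.36 with shHDAC3#2, 8.13 and 7.78 with shDNMT1#1 and 7.87 and 7.86 with shDNMT1#2, against 8.20 and 8.09 in shLuc. It fell with shHDAC3#2 by 0.79 ± 0.11 (SE, limma, adjusted p = 2.7e-05), and its second probe set was at -1.04 there. AAAS, which NDC1 holds at the pore, had 7.67 and 7.52 with shHDAC3#1, 7.60 and 7.59 with shHDAC3#2, 7.61 and 7.58 with shDNMT1#1 and 7.71 and 7.63 with shDNMT1#2, against 7.41 and 7.48 in shLuc. All 8 knockdown arrays of AAAS were above both controls, by 0.15 to 0.22 on the log2 scale in group means, and none of these changes was called. After a further quantile normalization AAAS (0.28, adjusted p = 0.029) and NUP188 (0.31, adjusted p = 0.012) were called higher with shDNMT1#2. NUP210, the other membrane protein, was called with no hairpin on its brightest probe set, at -0.08 with shDNMT1#2, but 3 of its other probe sets, with means of 7.95, 7.75 and 7.70, were at -1.14, -0.60 and -0.56 with shDNMT1#2 (limma over all probe sets with 1 symbol, adjusted p = 1.1e-06, 0.0007 and 0.0018). Its probe sets therefore disagreed there.

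In the central channel, NUP54 and NUP58, which sit in 1 complex with NUP62, had called changes in opposite directions with shHDAC3#1 alone. NUP54 had 7.30 and 7.33 with shHDAC3#1, 7.40 and 7.72 with shHDAC3#2, 7.81 and 7.47 with shDNMT1#1 and 6.26 and 6.55 with shDNMT1#2, against 8.03 and 7.99 in shLuc. The shDNMT1#2 arrays stood far below all others. NUP54 fell there by 1.60 ± 0.13 (SE, adjusted p = 7.8e-09), to 32.9% of shLuc, and fell by 0.70 with shHDAC3#1 and 0.45 with shHDAC3#2 (adjusted p = 0.22 without shLuc replicate 1). It rests on 1 probe set that may cross-hybridize, and its other probe sets, at means of 2.64 and 2.52, lay between -0.03 and 0.16. NUP62 fell with shHDAC3#1 (-0.31) and shDNMT1#2 (-0.41). Both calls were lost after a further quantile normalization (-0.06 and -0.15, adjusted p = 0.64 and 0.19) and without shLuc replicate 1 (adjusted p = 0.18 and 0.054), and a dim NUP62 probe set less prone to cross-hybridization, at a mean of 2.60, gave 0.26 and 0.06. NUP98, which also enters the nucleoplasm, was called with no hairpin.

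NUP58 had 6.58 and 7.12 with shHDAC3#1 and 4.59 and 4.45 with shHDAC3#2, against 5.02 and 4.78 in shLuc. With the DNMT1 hairpins it had 4.82 and 4.83 (shDNMT1#1) and 5.26 and 5.23 (shDNMT1#2). Both shHDAC3#1 arrays lay above every other array, and both shHDAC3#2 arrays below every other array. NUP58 rose with shHDAC3#1 by 1.95 ± 0.15 (SE, limma, adjusted p = 4.1e-09), the one increase called among the members, and was at -0.38 with shHDAC3#2 (adjusted p = 0.13). Between the hairpins, shHDAC3#2 minus shHDAC3#1 was -2.33 ± 0.15 (adjusted p = 4.5e-10); this difference was known when the gene was picked out. No detection call comes with these values, and the shLuc mean of 4.90 lies beside that of the T cell marker CD3E (4.97), so that the size as a fold is not given. The mean of both HDAC3 hairpins, 0.79, describes neither. The other NUP58 probe sets were dimmer, at means of 4.21, 4.14 and 4.02, and gave -0.62, 0.41 and 0.03 with shHDAC3#1, with adjusted p of 0.01, 0.037 and 0.92 over all probe sets, so that 1 of 4 probe sets showed the large rise, another rose less and another fell. The rise lies in the group whose ACTB difference stood apart, and the part of RNA quality in it was not tested.

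**Figure D3:**
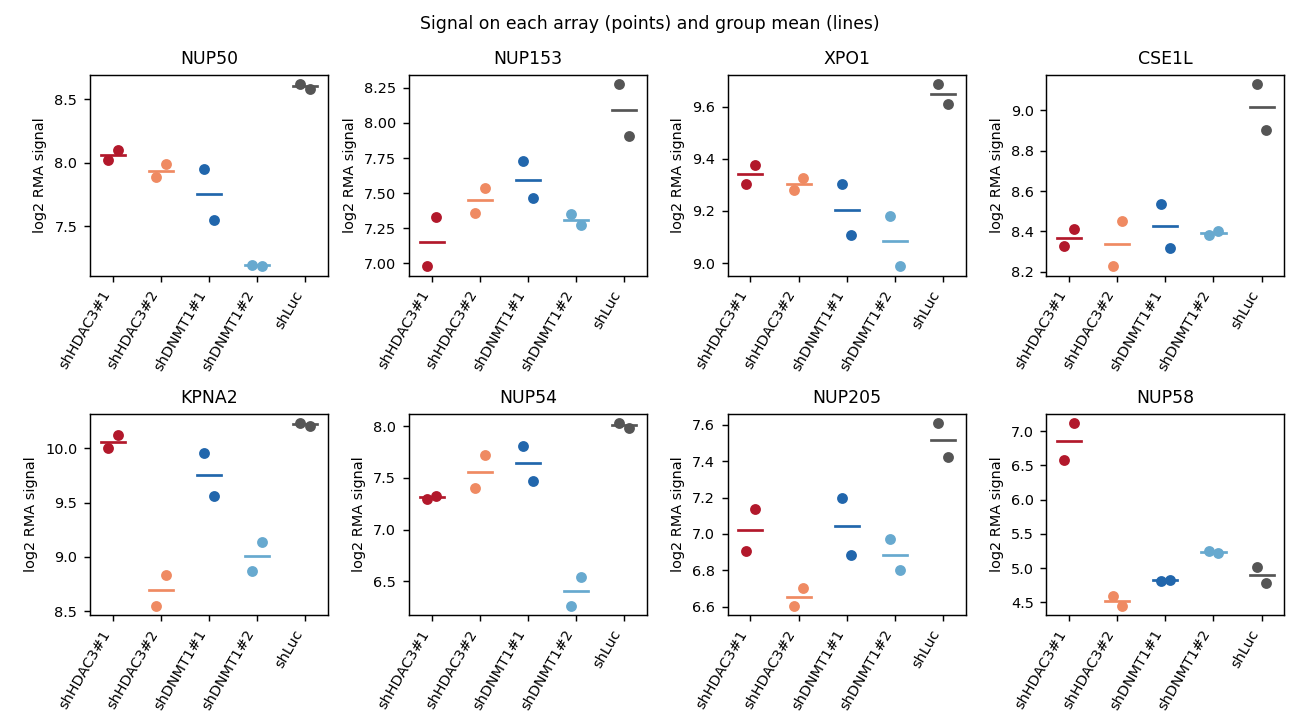
Log2 RMA signal of 8 genes on each of the 10 arrays (points, 2 per group) with group means (lines); vertical axes differ and do not start at 0. NUP50, NUP153, XPO1, CSE1L, KPNA2, NUP54 and NUP205 have every knockdown array below both shLuc arrays, and NUP58 stands high in shHDAC3#1 alone (6.58 and 7.12).

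On the cytoplasmic side, RANBP2 and NUP88 fell with 3 of 4 hairpins each, and NUP214 was called nowhere. RANBP2, which forms the cytoplasmic filaments and binds Ran, had 7.54 and 7.69 with shHDAC3#1, 7.67 and 7.79 with shHDAC3#2, 7.91 and 7.35 with shDNMT1#1 and 7.50 and 7.58 with shDNMT1#2, against 8.29 and 7.98 in shLuc. It fell with shHDAC3#1 (-0.51), shDNMT1#1 (-0.50) and shDNMT1#2 (-0.59), and was at -0.40 with shHDAC3#2 (adjusted p = 0.081). The dimmer RANBP2 probe set outside the kinds that can cross-hybridize, at a mean of 5.34, lay between -0.13 and 0.10. NUP88, the partner of NUP214, had 7.0 and 7.05 with shHDAC3#1, 6.84 and 7.19 with shHDAC3#2, 7.39 and 7.22 with shDNMT1#1 and 6.81 and 7.0 with shDNMT1#2, against 7.53 and 7.33 in shLuc. Its shDNMT1#1 arrays overlapped the controls, and it fell with the other 3 hairpins, by 0.40 with shHDAC3#1, 0.42 with shHDAC3#2 and 0.52 with shDNMT1#2. RAE1, an mRNA export factor, fell on its brightest probe set with shDNMT1#2 alone (-0.29, adjusted p = 0.034). With quantile normalization it was at 0.02 there (adjusted p = 0.86). A second RAE1 probe set, at a mean of 8.23, gave -0.41 with shHDAC3#1 and -0.24 with shDNMT1#2 (limma over all probe sets, adjusted p = 0.0036 and 0.074). Another, at a mean of 7.4, gave 0.3 and 0.01. With shLuc replicate 1 left out, none of the RANBP2, NUP88 and RAE1 calls on the probe sets that represent these genes remained.

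On 1 probe set per gene, the nuclear basket was the class with the lowest median with each of the 4 hairpins: -0.54 with shHDAC3#1, -0.64 with shHDAC3#2, -0.53 with shDNMT1#1 and -0.87 with shDNMT1#2. With shDNMT1#1 the exportins were close, at -0.52. The ranking depended on the probe sets. With the mean of all probe sets of a gene, the basket medians were -0.23, -0.17 and -0.25 with shHDAC3#1, shHDAC3#2 and shDNMT1#1. The inner ring medians were then lower, at -0.24, -0.44 and -0.29. All 3 basket genes fell with shHDAC3#2, shDNMT1#1 and shDNMT1#2, and 2 with shHDAC3#1, on the probe sets that represent them. NUP50, which helps importins release their cargo, had 8.02 and 8.10 with shHDAC3#1, 7.89 and 7.99 with shHDAC3#2, 7.96 and 7.55 with shDNMT1#1 and 7.20 and 7.19 with shDNMT1#2, against 8.62 and 8.58 in shLuc. The groups did not overlap with shLuc, and the shDNMT1#2 arrays were the lowest of all. Its log2 changes were -0.54 with shHDAC3#1, -0.66 with shHDAC3#2, -0.85 with shDNMT1#1 and -1.41 ± 0.11 with shDNMT1#2 (SE; limma, adjusted p between 8e-09 and 0.0012), the last a level of 37.7% of shLuc. A second NUP50 probe set, at a mean of 7.18, gave -0.42, -0.81, -0.76 and -1.47 in the same order. Another, at 7.12, gave -0.33, -0.67, -0.41 and -0.71, called over all probe sets with shHDAC3#2 and shDNMT1#2 alone. The one at 6.23 gave 0.14, -0.07, 0.00 and -0.32, with none called. Those at 5.92 and 3.95 gave -0.31, -0.43, -0.45 and -0.75, and 0.12, -0.02, -0.15 and -0.20.

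NUP153, which links the basket to the ring, had 6.98 and 7.33 with shHDAC3#1, 7.36 and 7.54 with shHDAC3#2, 7.73 and 7.46 with shDNMT1#1 and 7.35 and 7.27 with shDNMT1#2, against 8.28 and 7.91 in shLuc. All knockdown arrays were below both controls. It fell by 0.94, 0.64, 0.50 and 0.78 in that order (adjusted p between 1.9e-05 and 0.021), while dimmer NUP153 probe sets, at means of 5.61 and 3.38, lay between -0.11 and 0.40. TPR, the coiled-coil protein of the basket filaments, fell with shHDAC3#2 (-0.43), shDNMT1#1 (-0.53) and shDNMT1#2 (-0.87), and was at -0.30 with shHDAC3#1 (adjusted p = 0.089). A second TPR probe set of nearly the same brightness, at a mean of 7.68, gave -0.33, -0.19, -0.31 and -0.56 with the 4 hairpins, called with shDNMT1#2 alone, and the dimmest, at 4.20, lay between -0.04 and 0.11. Without shLuc replicate 1 the shHDAC3#2 and shDNMT1#1 calls were lost for TPR (adjusted p = 0.5 and 0.3) and for NUP153 (0.12 and 0.51), and only NUP50 of the basket was then called with every hairpin.

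Among the importins and their adaptors, the hairpins gave different patterns. KPNA2, an importin alpha that joins cargo to importin beta and is abundant in dividing cells, had 10.00 and 10.12 with shHDAC3#1, 8.55 and 8.83 with shHDAC3#2, 9.95 and 9.56 with shDNMT1#1 and 8.87 and 9.14 with shDNMT1#2, against 10.23 and 10.21 in shLuc. The second hairpin of each target gave the lower values. KPNA2 fell with shHDAC3#2 by 1.53 ± 0.12 (SE, limma, adjusted p = 1.9e-08), to 34.6% of shLuc, with shDNMT1#2 by 1.22 (adjusted p = 1.5e-07), to 43.1%, and with shDNMT1#1 by 0.46 (adjusted p = 0.017, and 0.22 without shLuc replicate 1). With shHDAC3#1 it was at -0.16 (adjusted p = 0.34). A second KPNA2 probe set, at a mean of 9.21, gave -1.24 with shHDAC3#2 and -0.92 with shDNMT1#2. Between hairpins, KPNA2 was lower with shHDAC3#2 than with shHDAC3#1 (-1.37, adjusted p = 4.3e-08) and lower with shDNMT1#2 than with shDNMT1#1 (-0.75, adjusted p = 0.00014).

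KPNB1, IPO5 and IPO7 behaved otherwise: on the probe sets that represent them they fell with shHDAC3#1 and not with shHDAC3#2. TNPO1, of the same class, was called with neither (-0.13 and -0.20). IPO7, which carries ribosomal proteins and linker histone, had 7.90 and 8.20 with shHDAC3#1, 8.44 and 8.61 with shHDAC3#2, 8.55 and 8.24 with shDNMT1#1 and 8.37 and 8.20 with shDNMT1#2, against 8.70 and 8.63 in shLuc. The shHDAC3#1 arrays and 1 shDNMT1#2 array were the lowest. It fell with shHDAC3#1 (-0.61) and shDNMT1#2 (-0.38), and its 3 other probe sets lay between -0.84 and -0.67 with shHDAC3#1. With shHDAC3#2 those 3 lay between -0.44 and -0.23. The dimmest, at a mean of 7.22, was called there (limma over all probe sets, adjusted p = 0.048). Its difference between the HDAC3 hairpins was 0.30 and not called (adjusted p = 0.2). KPNB1, the main importin beta, fell with shHDAC3#1 (-0.56) and was at -0.09 with shHDAC3#2, and IPO5 was at -0.63 and -0.08. Set against each other, shHDAC3#2 was higher than shHDAC3#1 by 0.47 for KPNB1 (adjusted p = 0.0026), 0.55 for IPO5 (0.00044) and 0.47 for IPO7 (0.0076). These lower values lie in the group whose ACTB difference stood apart, and its part in them was not tested. KPNA4, another importin alpha, fell with shHDAC3#1 (-0.30) and shDNMT1#2 (-0.68), IPO5 also with shDNMT1#1 (-0.49), and TNPO1, which carries RNA-binding proteins, with shDNMT1#2 (-0.27). A KPNA4 probe set at a mean of 7.53 gave -0.50 with shHDAC3#1 and -0.83 with shDNMT1#2. A dimmer one, at 5.87, gave -1.16 and 0.30 there (limma over all probe sets, adjusted p = 5.9e-05 and 0.21). Without shLuc replicate 1 the calls of KPNA4 with shHDAC3#1, IPO5 with shDNMT1#1 and IPO7 and TNPO1 with shDNMT1#2 were lost (adjusted p between 0.064 and 0.27). KPNB1 with shHDAC3#1 was at -0.23 after a further quantile normalization (adjusted p = 0.05).

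The 2 exportins of the list fell with every hairpin, while other exportins did not: XPO4 and XPO7 were called with none, XPO6 fell with shDNMT1#2 alone, and XPO5 and XPOT with shHDAC3#1 alone. XPO1, which carries proteins with a leucine-rich export signal, had 9.30 and 9.38 with shHDAC3#1, 9.28 and 9.33 with shHDAC3#2, 9.30 and 9.11 with shDNMT1#1 and 9.18 and 8.99 with shDNMT1#2, against 9.69 and 9.61 in shLuc. The knockdown arrays were all below the controls. Its log2 changes were -0.31 ± 0.10 (SE), -0.35, -0.44 and -0.57 in that order (limma, adjusted p = 0.022, 0.019, 0.0042 and 0.00013), or 67.6% to 80.7% of shLuc. After a further quantile normalization XPO1 was at 0.04, -0.14, -0.28 and -0.19, and only shDNMT1#1 remained called (adjusted p = 0.016). Without shLuc replicate 1 it was at -0.27, -0.31, -0.41 and -0.53, and only shDNMT1#2 passed (adjusted p = 0.0072). The shHDAC3#1 call was also lost without either of that group's arrays, the shHDAC3#2 call without shLuc replicate 2 or its own replicate 1, and the shDNMT1#1 call without its replicate 2. Its other probe sets, at means of 6.46 and 5.02, lay between 0.00 and 0.33.

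CSE1L, which returns importin alpha to the cytoplasm, had 8.33 and 8.41 with shHDAC3#1, 8.23 and 8.45 with shHDAC3#2, 8.53 and 8.32 with shDNMT1#1 and 8.38 and 8.40 with shDNMT1#2, against 9.13 and 8.90 in shLuc. The 4 hairpin groups had nearly 1 level, well under the controls. Its log2 changes were -0.65 ± 0.11 (SE), -0.68, -0.59 and -0.62 (adjusted p between 0.00011 and 0.00089), and -0.38, -0.48, -0.43 and -0.34 after a further quantile normalization, each still called. The shDNMT1#1 call was lost without shLuc replicate 1 (adjusted p = 0.059). A CSE1L probe set at a mean of 7.73 gave -0.08 with shHDAC3#1 and -0.63, -0.39 and -0.42 with the other hairpins.

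In the Ran cycle RAN was the gene called, on the probe sets that represent the genes. RAN had 9.82 and 10.02 with shHDAC3#1, 9.54 and 9.72 with shHDAC3#2, 9.98 and 9.88 with shDNMT1#1 and 9.80 and 9.61 with shDNMT1#2, against 10.05 and 10.12 in shLuc. It fell with shHDAC3#2 (-0.45 ± 0.10 SE, limma, adjusted p = 0.003) and shDNMT1#2 (-0.38, adjusted p = 0.0068). After a further quantile normalization RAN was at -0.28 with shHDAC3#2 (adjusted p = 0.0055) and at -0.03 with shDNMT1#2 (adjusted p = 0.74). RCC1 had 7.75 and 7.80 with shHDAC3#1, 7.36 and 7.61 with shHDAC3#2, 7.75 and 7.62 with shDNMT1#1 and 7.60 and 7.71 with shDNMT1#2, against 7.61 and 7.84 in shLuc. Every RCC1 group overlapped shLuc, and neither RCC1 nor RANGAP1 was called with any hairpin. A second RCC1 probe set of nearly the same brightness, at a mean of 7.56, was at 0.30 with shHDAC3#1 (adjusted p = 0.033 over all probe sets).

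**Figure D4:**
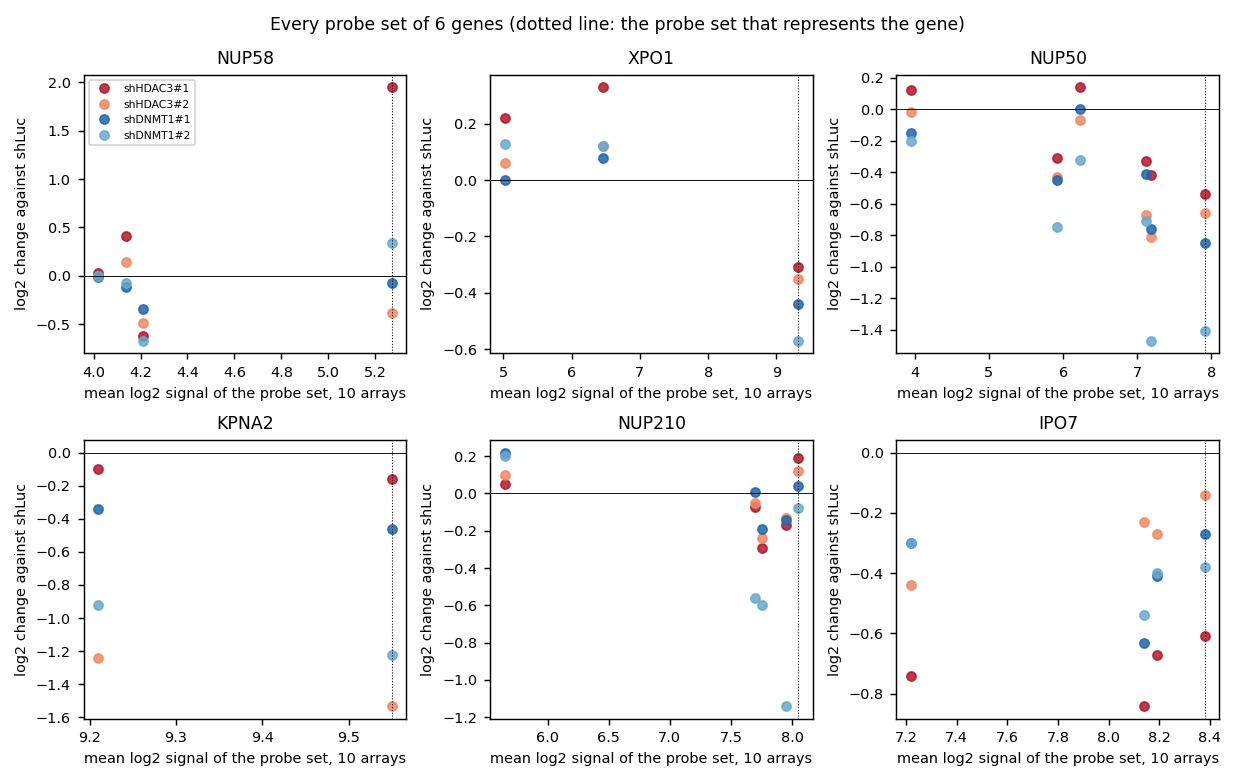
Log2 change against shLuc (vertical axis) of every probe set of NUP58, XPO1, NUP50, KPNA2, NUP210 and IPO7 by its mean log2 signal over 10 arrays (horizontal axis), coloured by hairpin; the dotted line marks the probe set that represents the gene. The probe sets of KPNA2 and IPO7 lie together, while 1 of 4 NUP58 probe sets carries the rise of 1.95 and the dimmer XPO1 probe sets lie at or above 0.

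With both hairpins of a target averaged, 22 members fell and 1 rose in HDAC3 knockdown, against 19.2% of all genes called, 15.3% lower and 3.96% higher. In DNMT1 knockdown 24 fell and none rose, against 20.2% of all genes called, 13.5% lower and 6.66% higher, and 1 member was higher at an unadjusted p under 0.05. When hairpins were treated as random, so that their disagreement enters the error, limma called 0 members in either knockdown. It called 0.369% of all genes in HDAC3 knockdown and 0.157% in DNMT1 knockdown. In each, 14 members had an unadjusted p under 0.05, a count with no share of all genes to set it against. Without shLuc replicate 1, 9 members were called in HDAC3 knockdown and 8 in DNMT1 knockdown. Between hairpins of 1 target, 6 members differed for HDAC3, 3 in each direction, against 12.6% of all genes called, 3.75% lower and 8.85% higher with shHDAC3#2. For DNMT1, 7 differed, all lower with shDNMT1#2, against 12% of all genes called, 8.39% lower and 3.57% higher. Besides KPNA2 the DNMT1 ones were NUP54 (-1.24), NUP50 (-0.56), NUP85 (-0.52), NUP43 (-0.51), KPNA4 (-0.41) and NUP88 (-0.40). The shares of members that differed, 15.8% for HDAC3 and 18.4% for DNMT1, lie near those of all genes, and 4 were called for DNMT1 without shDNMT1#2 replicate 2.

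DNMT1 knockdown and HDAC3 knockdown were also set against each other, a comparison that holds no shLuc array. In it 7 members were lower and 1 higher in DNMT1 knockdown, against 9.59% of all genes called, 3.59% lower and 6% higher. With hairpins treated as random, limma called 0 members and 0.0303% of all genes here, and 2 members had an unadjusted p under 0.05. NUP50 (-0.53 ± 0.08 SE, limma, adjusted p = 0.0001), NUP160 (-0.51), NUP54 (-0.41), TPR (-0.33), NUP43 (-0.27) and KPNA4 (-0.27) were lower and NDC1 (0.27) higher. The probe sets of KPNA4 disagreed here. One at a mean of 7.53 was at -0.26, and a dimmer one, at 5.87, was at 0.70 (limma over all probe sets, adjusted p = 0.096 and 0.00076). NUP58 was at -0.65, and at 0.51 (adjusted p = 0.0064) with the shHDAC3#1 arrays left out, a repeat chosen after seeing the data. In that repeat 4 members were lower and 3 higher, against 5.3% of all genes called. With all hairpins, 5 members were called without shHDAC3#1 replicate 2, shHDAC3#2 replicate 2, shDNMT1#2 replicate 1 or shDNMT1#2 replicate 2. CSE1L (0.05), KPNA2 (0.01) and NUP107 (0.00) did not pass the test, with SEs of 0.08, 0.09 and 0.08.

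Among other genes of nuclear transport, 32 of 33 listed were measured. With shHDAC3#1, 13 fell and 3 rose, and with shDNMT1#2, 9 fell and 4 rose. With shHDAC3#2, 3 fell and 1 rose, and with shDNMT1#1, 3 fell and 2 rose. Medians lay between -0.10 and 0.03. The shares that fell were 40.6%, 28.1%, 9.38% and 9.38% in that order, against 16.6%, 15.2%, 9.54% and 6.81% of all genes called lower. Those that rose were 9.38%, 12.5%, 3.12% and 6.25%, against 7.83%, 11.6%, 1.31% and 1.34% called higher. With shHDAC3#2 and shDNMT1#1 the shares that fell were thus near those of all genes. NXT2, a cofactor of mRNA export, had 6.41 and 6.52 with shHDAC3#1, 6.14 and 6.40 with shHDAC3#2, 6.25 and 5.74 with shDNMT1#1 and 6.43 and 6.13 with shDNMT1#2, against 7.01 and 6.91 in shLuc, and fell with every hairpin, by 0.49 to 0.96. RANBP1, which aids GTP hydrolysis by Ran, ran the other way. It had 8.79 and 8.98 with shHDAC3#1, 8.75 and 8.96 with shHDAC3#2, 8.93 and 8.80 with shDNMT1#1 and 9.0 and 8.84 with shDNMT1#2, against 8.50 and 8.36 in shLuc, and rose with every hairpin, by 0.43 to 0.49 (adjusted p between 0.0013 and 0.0088). The importin alpha gene KPNA3 fell with shDNMT1#2 by 1.45 (adjusted p = 2.9e-08). With shHDAC3#1 the other genes that fell were GLE1 (-0.65), IPO9 (-0.65), XPOT (-0.65), NXT1 (-0.59), HIKESHI (-0.52), IPO8 (-0.51), KPNA6 (-0.51), XPO5 (-0.50), SNUPN (-0.47), KPNA3 (-0.39), SEC13 (-0.35) and NUP42 (-0.34), while RANBP17 (0.33) and RANBP3 (0.29) rose. With shHDAC3#2 they were HIKESHI (-0.40) and SEC13 (-0.33). With shDNMT1#1 they were NXT1 (-0.40) and IPO9 (-0.40), and POM121 (0.39) rose. With shDNMT1#2 they were HIKESHI (-0.54), KPNA6 (-0.46), NXT1 (-0.42), XPO6 (-0.38), IPO9 (-0.35), NUP42 (-0.33) and KPNA1 (-0.30), while RANBP17 (0.57), POM121 (0.47) and IPO11 (0.35) rose.

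The promoters of members that fell are shown for the sequence context of the transcripts. RefSeq (GRCh38.p14) gave 44 promoters for 34 of the 38 members. The 250 bases before the start were searched on both strands for TTTGAA, the core of the CHR element of cell cycle promoters, and for CCAAT, which can overlap it by at most 1 base; both were picked with results of these data known. TTTGAA was in 25% of the members' promoters and in 11% of all 22199 promoters of protein-coding genes, and CCAAT in 38.6% and 32.7%. By gene, 10 of the 34 matched members hold TTTGAA and 14 hold CCAAT. Of the 8 members that fell with all 4 hairpins, 4 hold TTTGAA (NUP35, NUP37, NUP153 and NUP205) and 6 hold CCAAT. Among the members called with no hairpin, NUP93, NUP98 and RANGAP1 hold TTTGAA, and NUP93, NUP98 and NUP214 hold CCAAT. A match describes letters and is not a bound site. KPNA2 (chr17:68035485-68035734, plus strand), NUP37 (chr12:102120115-102120364, minus strand) and NUP205 (chr7:135557667-135557916, plus strand), which hold both, are printed 5′ to 3′ on the strand of the gene, with matches to either motif or its reverse complement in capitals.
KPNA2: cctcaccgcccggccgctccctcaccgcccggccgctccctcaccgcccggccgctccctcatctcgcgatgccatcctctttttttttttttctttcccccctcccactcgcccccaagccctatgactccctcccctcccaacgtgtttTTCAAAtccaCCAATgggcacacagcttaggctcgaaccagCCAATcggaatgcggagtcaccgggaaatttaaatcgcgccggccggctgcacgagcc
NUP37: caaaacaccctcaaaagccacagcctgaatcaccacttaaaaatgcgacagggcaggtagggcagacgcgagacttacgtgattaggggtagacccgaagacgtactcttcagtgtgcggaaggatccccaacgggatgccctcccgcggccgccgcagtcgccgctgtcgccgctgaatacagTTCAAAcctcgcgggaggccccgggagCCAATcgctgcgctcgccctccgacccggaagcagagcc
NUP205: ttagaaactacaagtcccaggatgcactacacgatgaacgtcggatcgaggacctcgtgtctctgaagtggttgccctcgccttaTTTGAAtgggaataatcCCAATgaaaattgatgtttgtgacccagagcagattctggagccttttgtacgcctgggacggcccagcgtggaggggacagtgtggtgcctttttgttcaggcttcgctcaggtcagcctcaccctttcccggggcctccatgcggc
In KPNA2 the TTTGAA match, on the opposite strand as in NUP37, begins 99 bases before the start and the CCAAT matches 89 and 58 bases before it. In NUP37 they begin 66 and 39 bases before the start, and in NUP205 165 and 148 bases before it.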

How the data were processed

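Per the submitters' processing notes, the deposited log2 values come from RMA and cover 54675 probe sets on 10 arrays, 2 per group. The log2 scale was read from the values, which ran from 1.78 to 14.39. For RMA, its version and the number of runs: not given in the sources used here. RMA values near background understate changes. The number of arrays limits the precision.

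By the platform annotation 41091 probe sets carry 1 symbol, 1801 carry more and 11721 lack one; 62 controls were left out. For each of 19775 genes the brightest probe set on average was used. Genes were tested with limma 3.58.1 (R 4.3.3): 1 model with 5 groups, 5 residual degrees of freedom, eBayes with a trend, two-sided, Benjamini-Hochberg over all genes. In simulated data on these genes, limma recovered 70% of changes of 0.5 and 100% of changes of 1 for shHDAC3#1 against shLuc.

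Members, classes and lists were chosen with earlier results of these data known. Values on every array are given for XPO1, NUP58 and the 2 members of each class with the largest mean absolute change. Alternatives were a filter at a mean of 4, averaged probe sets, leaving out probe sets named _s_, _x_ or _a_, quantile normalization, median centring, no trend, only the arrays compared, a replicate block, a random hairpin block, and leaving out arrays.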

Additional observations from a re-analysis of the deposited data

Results flagged for a closer look

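The effects of hairpins against the same target, or of the 2 knockdowns, differed for the following members by limma's test of the difference itself (adjusted p under 0.05 over all genes). For shHDAC3#2 minus shHDAC3#1 the differences were -2.33 for NUP58, -1.37 for KPNA2, -0.56 for NDC1, 0.47 for KPNB1, 0.55 for IPO5 and 0.47 for IPO7. For shDNMT1#2 minus shDNMT1#1 they were -1.24 for NUP54, -0.75 for KPNA2, -0.56 for NUP50, -0.52 for NUP85, -0.51 for NUP43, -0.41 for KPNA4 and -0.4 for NUP88. For DNMT1 knockdown minus HDAC3 knockdown they were -0.65 for NUP58, -0.53 for NUP50, -0.51 for NUP160, -0.41 for NUP54, -0.33 for TPR, -0.27 for NUP43, -0.27 for KPNA4 and 0.27 for NDC1. None of these 8 was called with hairpins treated as random, where 2 members had an unadjusted p under 0.05 in limma. The NUP58 difference between HDAC3 hairpins was known when the gene was picked out, so that its call is no independent test. The dimmer NUP58 probe sets gave 0.12, -0.28 and -0.02 for shHDAC3#2 minus shHDAC3#1. A dimmer KPNA4 probe set, at a mean of 5.87, gave 0.70 for DNMT1 knockdown minus HDAC3 knockdown (limma over all probe sets, adjusted p = 0.00076). Groups of 2 arrays are too small to look for single arrays far from the rest.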

How the results depend on the processing

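Of 141 called changes of members, recomputed 2691 times in all, 2274 values kept direction and call, 391 lost the call and 26 turned. With the mean of all probe sets of a gene, the count of members called moved to 11 (shHDAC3#1), 9 (shHDAC3#2), 4 (shDNMT1#1), 14 (shDNMT1#2), 13 (HDAC3 knockdown), 12 (DNMT1 knockdown) and 2 (DNMT1 against HDAC3 knockdown). In the same order, 20.1%, 8.1%, 5.47%, 24.3%, 14.9%, 16.1% and 7.64% of all genes were then called. Without probe sets that can cross-hybridize, which leaves 32 members, the count moved to 11, 15 and 5 for shHDAC3#1, HDAC3 knockdown and DNMT1 against HDAC3 knockdown. The shares of all genes called there were 19.3%, 14.7% and 7.89%. With the hairpin as a random block the count moved to 0 in both knockdowns and in their difference, where 2 members had an unadjusted p under 0.05 in limma. Without both shHDAC3#1 arrays, chosen after seeing the data, 15 were called in HDAC3 knockdown, against 10.3% of all genes. The cause was not tested. Leaving out 1 array at a time gave 11 to 22 for shHDAC3#1, 7 to 18 for shHDAC3#2, 1 to 18 for shDNMT1#1, 14 to 25 for shDNMT1#2, 9 to 24 for HDAC3 knockdown, 8 to 26 for DNMT1 knockdown, 4 to 9 and 4 to 8 between hairpins of HDAC3 and DNMT1, and 5 to 8 for DNMT1 against HDAC3 knockdown. The lowest counts against shLuc came without shLuc replicate 1; shHDAC3#2 had 7 also without its own replicate 1, shHDAC3#1 had 12 without its replicate 1 and shDNMT1#1 had 2 without its replicate 2.

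Without probe sets that can cross-hybridize, NUP54 turned to 0.12 (shHDAC3#1), 0.08 (shHDAC3#2), 0.05 (shDNMT1#2), 0.1 (each knockdown) and 0 (their difference); NUP62 to 0.26 (shHDAC3#1), 0.06 (shDNMT1#2), 0.23 (HDAC3 knockdown) and 0.03 (DNMT1 knockdown); TPR to 0.05 (shHDAC3#2), 0.11 (shDNMT1#1), 0 (HDAC3 knockdown), 0.04 (DNMT1 knockdown) and 0.04 (their difference); NUP88 to 0.13 (shDNMT1#2) and 0.31 (between DNMT1 hairpins); and RANBP2 to 0.08 (shDNMT1#2) and 0.04 (DNMT1 knockdown). This setting gave 19 of the 26 values that turned. The probe sets that stood in for these genes were dimmer, at means of 2.64 (NUP54), 2.6 (NUP62), 4.2 (TPR), 4.23 (NUP88) and 5.34 (RANBP2). XPO1 turned to 0.08 (shHDAC3#1) and 0.01 (HDAC3 knockdown) with averaged probe sets and to 0.04 (shHDAC3#1) with quantile normalization, which also turned RAE1 to 0.02 (shDNMT1#2). KPNA4 turned to 0.04 in the difference between knockdowns with averaged probe sets. Without the shHDAC3#1 arrays NUP58 turned to -0.38 in HDAC3 knockdown and 0.51 in the difference. The replicate numbers do not pair the arrays: 2 of 10 correlations of deviations between groups were over 0.1 (range -0.34 to 0.27). With the replicate block, 19, 15, 14 and 23 members were called with shHDAC3#1, shHDAC3#2, shDNMT1#1 and shDNMT1#2, 22 in each knockdown, 6 between hairpins of each target and 8 between knockdowns. Of all genes, 22.2%, 10.1%, 7.16% and 24.3% were called with the hairpins in that order. The shares were 17.3% in HDAC3 and 18.1% in DNMT1 knockdown, 11.6% and 10.7% between hairpins of HDAC3 and DNMT1, and 8.61% between knockdowns.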
